A study of Mus musculus with 8 samples.

Results

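The Smoc2 locus was described as the 200 kb from 14400000 to 14600000 on mouse chromosome 17 (mm9). Its members were the MBD peaks of 8 libraries that overlapped this window, 263 of 1723486 peaks in all. MBD sequencing pulls down DNA fragments rich in methylated CpGs, and a peak is a stretch where such fragments piled up. Peaks that shared at least 1 bp were merged across libraries, which gave 73 regions in the window, of 475861 in the genome. The window was chosen by measured values, since the region at 14509057 to 14510239 (region A below) had been seen with peaks in embryonic libraries and none in adult stem cells. Presence, tags and score there are therefore described and not tested.

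Smoc2 encodes a secreted, calcium-binding matrix protein of the SPARC family, which can bind and modulate growth factor signals outside the cell. In the adult mouse small intestine its transcript is one of the known markers of the Lgr5+ stem cells at the crypt base. Methylated CpGs lie mostly in gene bodies and repeats in mammalian tissues, and CpG-poor regulatory elements often lose methylation where transcription factors bind. Expression was not measured in these libraries.

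The libraries formed 4 groups with 2 biological replicates each, all from the small intestine of mice of a mixed C57BL/6 and CD1 background. Epithelium of embryos at E12.5 and at E14.5 was sorted for EpCAM, without the endothelial marker CD31 and the leukocyte marker CD45. The adult groups came from males at postnatal day 60 that carried the Lgr5EGFP-Cre-ERT allele. Adult stem cells (ISC) were sorted for high EGFP, which reports Lgr5, and enterocytes, the absorptive cells, were sorted for EpCAM without CD31 and CD45. No agent or other allele was named. The sources used here do not give whether a replicate was 1 animal or a pool, and marker transcripts of the sorted cells could not be checked in methylation data.

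Libraries held 31438314 to 55442400 tags and lists of 84990 to 338262 peaks. The E12.5 libraries had the most tags but the shortest lists, with 9.84% and 7.46% of tags in peaks, against 23.8% to 38.9% in the other 6. Each list was called on its own without an input library, so a missing peak means that the tags there did not pass the caller's cutoff. It does not give the number of tags, and no percent methylation follows from a peak. With 2 libraries a group, an exact two-sided permutation test cannot give a p below 0.33, and none was made.

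The files do not annotate peaks with genes, and the gene table used here is of another build (RefSeq, GRCm38.p6), so no peak was placed in an exon, an intron or the promoter of Smoc2. In that table the nearest protein-coding neighbours of Smoc2 are Dact2 before it and Thbs2 after it. Dact2 encodes a modulator of Wnt and TGF-beta signalling, and Thbs2 a secreted matrix protein of the thrombospondin family. The non-coding genes Gm52280 and 4930474M22Rik overlap Smoc2 there. Whether region A or any other region lies inside Smoc2 was not tested.

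The window was rich in peaks in every library. It held 20 and 21 peaks at E12.5, 46 and 51 at E14.5, 27 and 43 in ISC, and 22 and 33 in enterocytes. Per Mb this was 2.47 and 3.06 times the autosomal density of the same library at E12.5, 1.81 and 1.87 times at E14.5, 1.64 and 1.89 times in ISC, and 1.66 and 1.76 times in enterocytes. The excess over the autosomes was thus higher in both E12.5 libraries than in any of the other 6. Their lists were also the shortest, with 100314 and 84990 peaks against 164157 to 338262. The density with equal lists was not computed, so a part of list length in this excess was not tested. The window also held more peaks than the 200 kb on either side of it in all 8 libraries. At E12.5 the flanks held 6 to 11 peaks, against 27 to 40 at E14.5, 24 to 32 in ISC and 18 to 29 in enterocytes. Peaks covered between 5.67% (E12.5 replicate 2) and 12.3% (E14.5 replicate 1) of the window.

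**Figure D1:**
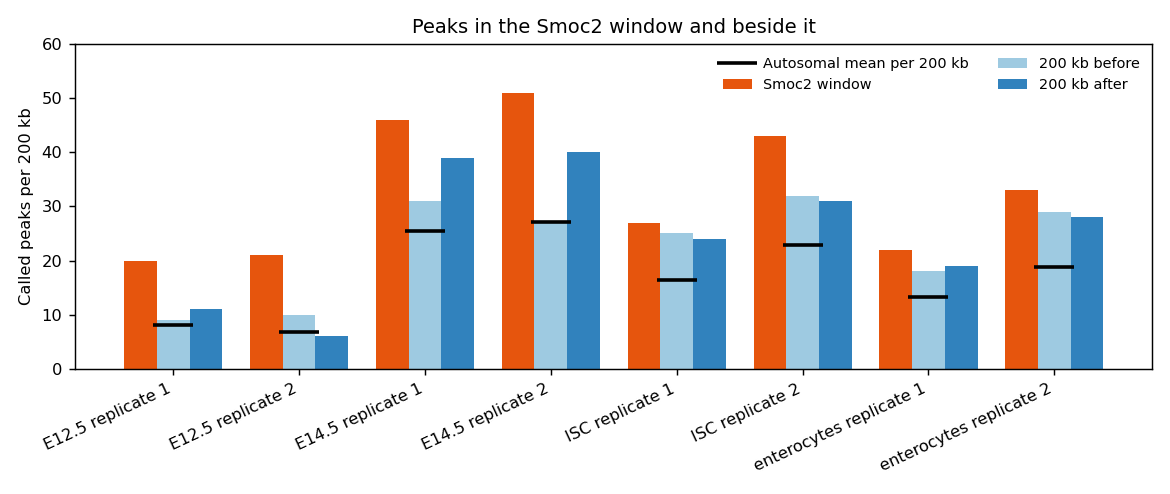
Called peaks per 200 kb (y axis) in each of the 8 libraries (x axis), for the Smoc2 window and for the 200 kb before and after it, with a black line at the autosomal mean of the library. The window bar is the highest of the 3 bars in all libraries, from 20 peaks in E12.5 replicate 1 to 51 in E14.5 replicate 2.

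Most of the 73 regions were called in some libraries and not in others. At least 1 library of the group called 28 regions for E12.5, where 30.1% of all regions were so called, 58 for E14.5 (82.6%), 46 for ISC (65.9%) and 33 for enterocytes (54.1%). Both libraries of the group called 13 regions for E12.5 (7.93% of all regions), 33 for E14.5 (43.7%), 19 for ISC (31.4%) and 21 for enterocytes (27.7%). The share of the window called in both libraries was thus 17.8% for E12.5, above its background, against 45.2% for E14.5, 26.0% for ISC and 28.8% for enterocytes, which lay closer to theirs. All 4 adult libraries called 15 regions (background 19.8%) and all 4 embryonic libraries 8 (background 6.83%). A single library called 21 regions (background 28.1%), 12 of them in an embryonic library and 9 in an adult one. No adult library had a peak in 23 regions (background 25.2%), and no embryonic library had one in 11 (background 13.0%).

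**Figure D2:**
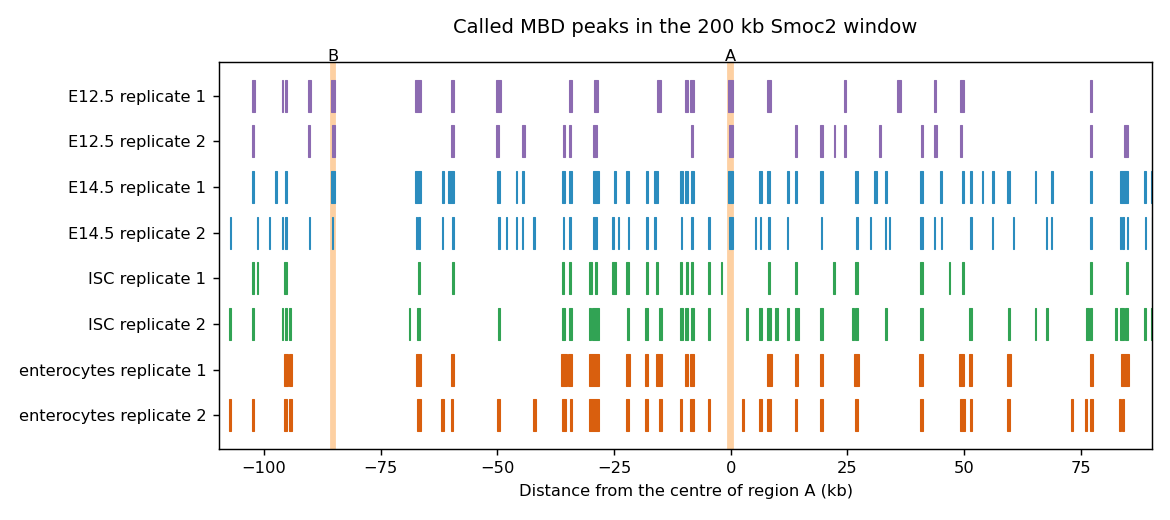
Peaks of the 8 libraries (rows, by stage) along the window, as distance in kb from the centre of region A; each bar is a called peak, drawn to scale with a thin outline. The shaded regions A and B hold peaks in the 4 embryonic libraries and in none of the 4 adult libraries.

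Region A was called in all 4 embryonic libraries and in no adult one. Its peak held 81 and 64 tags at E12.5 and 123 and 126 tags at E14.5, while ISC and enterocyte libraries had no peak there. Both E14.5 values lay above both E12.5 values, although the E12.5 libraries were the deeper ones. Region A was the highest-scoring region of the window in both E14.5 libraries. Its peak scored above 99.4% and 99.7% of all peaks of these lists. At E12.5 it scored above 62.4% and 61.7% of the peaks of the list and ranked 9 of 20 and 12 of 21 regions of the window by score. The caller's fold over local background was 6.26 and 7.45 at E14.5, against 2.76 and 4.05 at E12.5.

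The embryonic peaks of region A were wide and all overlapped. They spanned 1052 and 1036 bp at E14.5, against 1015 and 695 bp at E12.5, and held 11.7 and 12.2 tags per 100 bp at E14.5, against 7.98 and 9.21 at E12.5. Over the whole lists, median peak lengths were 450 and 272 bp at E14.5, against 586 and 506 bp at E12.5. The part of this in the tags per 100 bp was not tested. The summits of the region A peaks, the points of highest pile-up, lay at 14509446 and 14509368 at E14.5 and at 14509594 and 14509775 at E12.5. The summits thus spread over 407 bp, and both E12.5 summits lay to the right of both E14.5 summits. Over the other 27 regions of the window called in at least 4 libraries, the spread of summits had a median of 215 bp and ran from 89 to 1520 bp.

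Adult peaks flanked region A without reaching it. The nearest ISC peaks lay 1200 bp before it, with 21 tags in ISC replicate 1, and 2653 bp after it, with 39 tags in ISC replicate 2. The nearest enterocyte peaks lay 3873 bp before it and 1779 bp after it, with 34 and 42 tags, both in enterocyte replicate 2. From 14507858 to 14512017, a stretch of 4160 bp, no adult library had a peak. Such a gap is common, since 60.9% of the autosomal stretches between adult peaks were shorter. Over the whole adult lists the fewest tags in a peak were 15 in each ISC library and 23 and 19 in the enterocyte libraries. The cutoff depends on local background, so these counts are not the floor at region A. Within 10 kb of it, the lowest-scoring adult peaks held 21 and 43 tags in the ISC libraries and 39 and 48 in the enterocyte libraries. How many adult tags at region A would have been called was not tested.

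**Figure D3:**
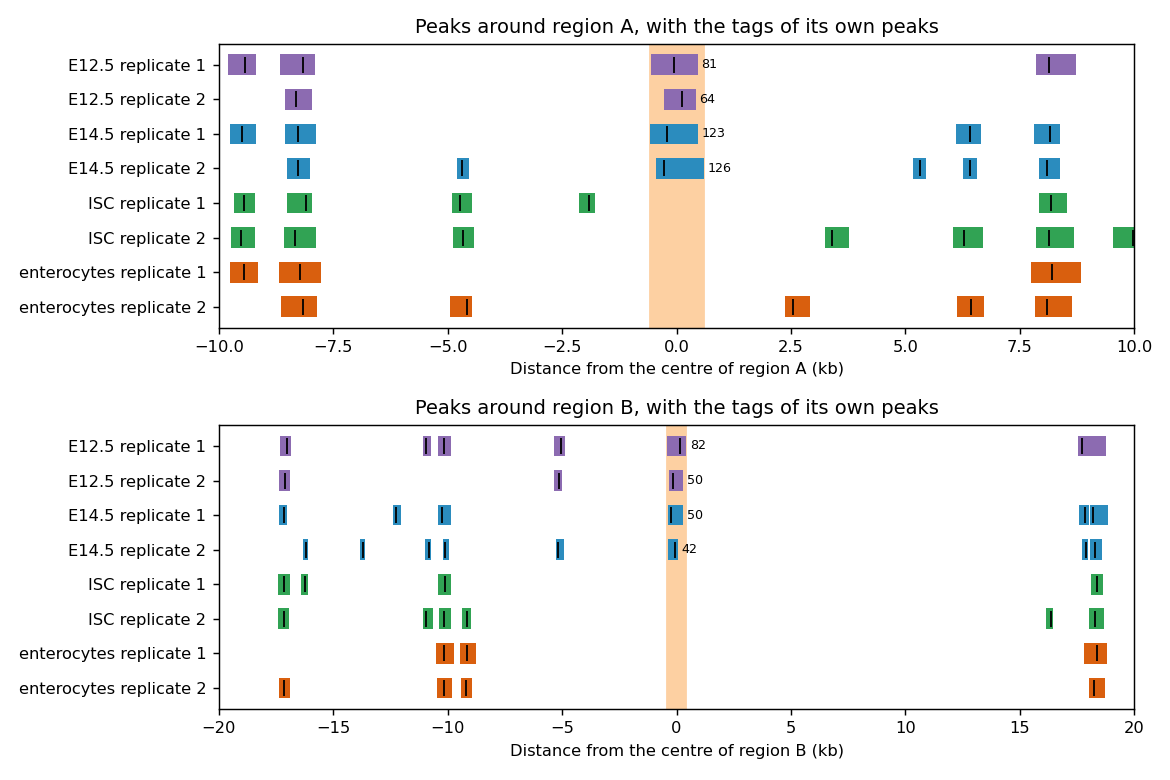
Peaks of the 8 libraries (rows) within 10 kb of the centre of region A (upper panel) and within 20 kb of the centre of region B (lower panel), with black ticks at the summits and the tags of the peaks inside each shaded region. Region A held 64 to 126 tags and region B 42 to 82 tags in the embryonic libraries, and no adult bar enters either region.

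A second region of the window, at 14424070 to 14424928 (region B), had the same calls. Region B lay 84129 bp before region A and was found by the count of regions called in all embryonic and no adult libraries. Its peak held 50 and 42 tags at E14.5, against 82 and 50 tags at E12.5. Scaled to the total tags of the library (RPM), the stages overlapped there, with 1.45 and 1.2 RPM at E14.5, against 1.48 and 0.902 RPM at E12.5. It scored above 89.3% and 93.0% of the peaks of the lists at E14.5, against 98.9% and 78.9% at E12.5, so it stood higher within the E12.5 lists than region A did. The fold over local background was 6.13 and 13.2 at E14.5, against 5.30 and 5.95 at E12.5.

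Region B sat in the longest stretch of the window without a peak in each of the 4 adult libraries. These stretches ran over 27972 and 25119 bp in ISC and 26544 and 26931 bp in enterocytes. The part common to all 4, from 14415749 to 14440641 (24893 bp), was longer than 96.1% of the autosomal stretches between adult peaks. Of the 13866 stretches at least as long, 27 held a region called in all 4 embryonic libraries, this one among them. Over all 355623 autosomal stretches, with a median of 3071 bp, 660 regions were called in all 4 embryonic and no adult libraries. Longer stretches hold more sequence, so these counts do not tell whether the share was high or low. A weaker embryonic region, at 14419132 to 14419641, lay in the same stretch and was named after its values were seen. It had 31 tags in E14.5 replicate 2 and no peak in E14.5 replicate 1, against 44 and 27 tags in the E12.5 libraries. In each E14.5 library the longest stretch without a peak also began where its own peak of region B ended, and ran over 17308 bp in replicate 1 and 17673 bp in replicate 2.

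Over the genome, 0.139% of all regions were called in the 4 embryonic libraries and in no adult library, against 2 of 73 regions in the window, a contrast that the choice of the window used. The reverse, all 4 adult libraries and no embryonic one, was found at 0.402% of all regions and at none of the 73. In the flanks of 200 kb, with 50 and 54 regions, neither pattern occurred. Of the 11941 autosomal bins of 200 kb with any region, 623 held at least 1 embryonic-only region and 33 held at least 2. Regions called in all 4 embryonic libraries mostly had adult peaks: 662 of 32490 (2.04%) had none. Among the 9781 whose lowest standing within the 4 embryonic lists was at least that of region A, 71 (0.726%) had no adult peak, and for region B it was 22 of 4584 (0.48%).

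**Figure D4:**
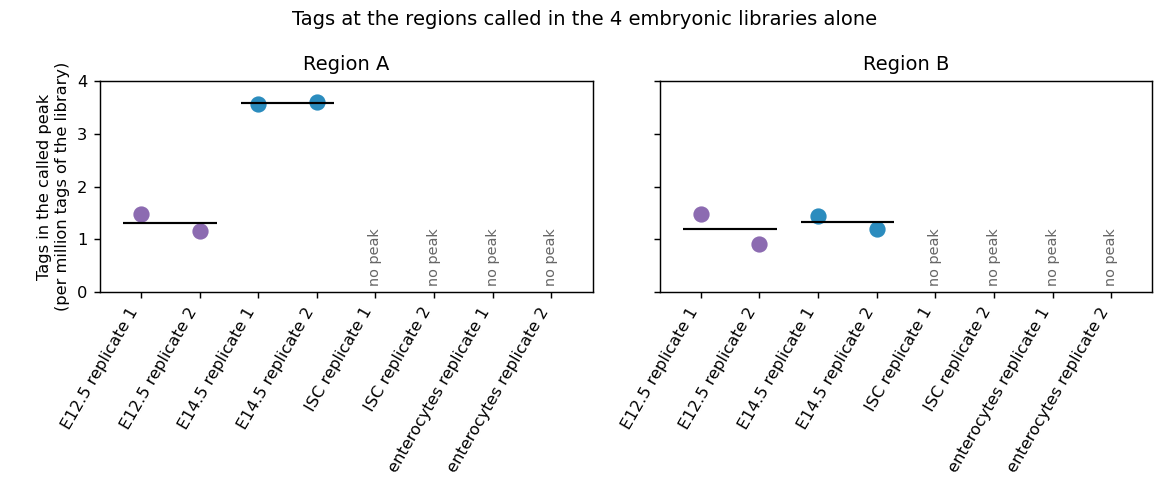
RPM in the called peak (y axis) at region A (left) and region B (right), with 1 point per library and a line at the mean of each embryonic group; adult libraries had no peak and no value. At region A the E14.5 points (3.56 and 3.61) lie above the E12.5 points (1.47 and 1.15), and at region B the groups overlap.

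Between the embryonic stages, region A stood out from region B in how its tags compared with other regions. Region A averaged 3.58 ± 0.0376 RPM at E14.5 and 1.31 ± 0.221 RPM at E12.5 (SD, n = 2 each), a ratio of 2.74. Region B averaged 1.33 ± 0.172 RPM at E14.5 and 1.19 ± 0.412 RPM at E12.5, a ratio of 1.11. The median ratio over the 32490 regions called in all 4 embryonic libraries was 1.64, and 92.2% of them had a lower ratio than region A and 12.9% a lower one than region B. Whether tags rose or fell in absolute terms depended on the scaling. Scaled by the tags in all peaks of the own list, region A had a ratio of 0.708 and region B 0.289, with a median of 0.417. Scaled by the tags in the regions called in all 8 libraries, the ratio was 1.5 for region A and 0.61 for region B, with a median of 0.89. Each scaling divides all regions of a library by the same total, so the order of the regions could hardly change between scalings. Over the 3 scalings, 92.2% to 92.6% of the regions had a lower ratio than region A and 12.9% to 15.2% a lower one than region B. These are descriptions of 2 libraries a stage.

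**Figure D5:**
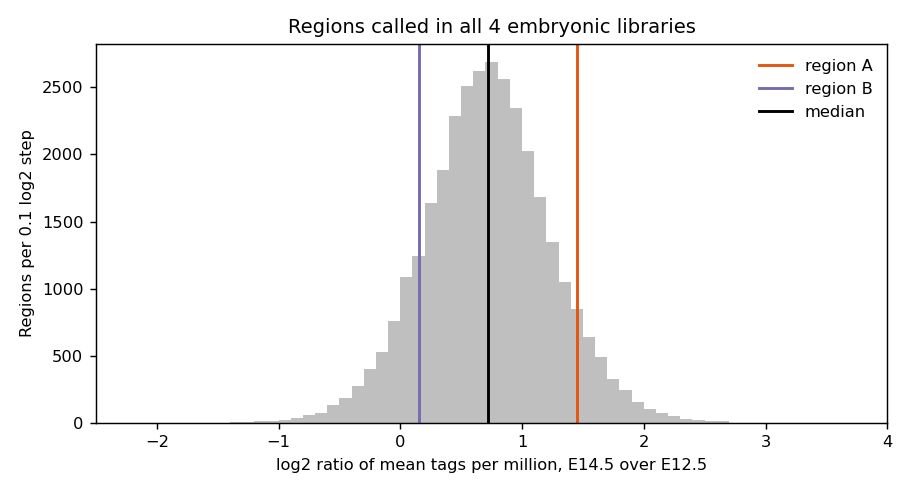
Histogram of the log2 ratio of mean RPM, E14.5 over E12.5 (x axis), over the 32490 regions called in all 4 embryonic libraries (y axis, regions per 0.1 log2 step), with lines at region A (1.45), region B (0.15) and the median (0.72). Region A lies in the upper tail and region B in the lower part of the distribution.

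E14.5 was set against E12.5 for changes within the embryo. Of the 73 regions, 17 were called at E14.5 alone of these stages (both replicates of it, none of the other), against a background of 23.9% of all regions. The count is close to that background. These peaks held 15 to 49 tags at E14.5. Of the 17, 12 had a peak in at least 1 adult library and 3 in all 4. By mean score standing the highest was at 14536154 to 14537123, with 47 tags in each E14.5 library, 52 and 54 tags in ISC and 72 in each enterocyte library. At 14491320 to 14492036, peaks had 42 and 46 tags in the E14.5 libraries, 46 and 58 tags in ISC, and 55 and 57 tags in enterocytes. Both regions were thus called in all 6 libraries later than E12.5. The opposite call was made at 1 region, against a background of 0.276%. That region, at 14533884 to 14534427, had 36 and 34 tags in the E12.5 libraries and no adult peak. With every list held to its 84990 highest-scoring peaks, the window held 37 regions. Of these, no region was called at E14.5 alone (background 5.39%) and 3 at E12.5 alone (background 3.58%). With the top 50% of each list by score, 6 of 44 regions were called at E14.5 alone and 2 at E12.5 alone (backgrounds not computed). The direction thus changed with equal lists but not with the top 50% of each.

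ISC were set against E14.5, which parts adult stem cells from embryonic epithelium. By the same definition no region of the window was called in ISC alone, where the background was 1.91%. The reverse was found at 9 regions, with a background of 6.69%, and regions A and B were 2 of the 9. The choice of the window used this contrast, so nothing is read from the count. E14.5 peaks of the other 7 had between 19 and 37 tags, well below region A. They scored above between 8.96% and 77.7% of the peaks of their lists. Of all 9, 8 had no adult peak, and the ninth, at 14447687 to 14448181, had 1 of 29 tags in enterocyte replicate 2. The region at 14493176 to 14493548, with 31 and 30 tags at E14.5, had the highest mean score standing of these 7 and no peak in any other group. The next region, at 14493624 to 14494944, had peaks in all 4 adult libraries, and merging within 500 bp joins these 2 regions. With equal lists 1 region was called in ISC alone of these groups, at 14407068 to 14407641, and 3 at E14.5 alone (backgrounds 3.24% and 2.98%). The ISC region also had peaks in both E12.5 libraries, with 34 and 39 tags. With full lists it had a peak of 20 tags in E14.5 replicate 1 as well. The 3 regions at E14.5 alone were A, B and 14449174 to 14450355. The last had weak adult peaks that equal lists dropped, with 17 tags in ISC replicate 1, none in ISC replicate 2, and 31 and 23 tags in enterocytes. Its embryonic peaks held 101 and 48 tags for E14.5 and 51 and 42 tags for E12.5.

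Enterocytes were set against ISC for changes on differentiation. No region of the window was called in enterocytes alone of these 2 groups, and none in ISC alone. The backgrounds were 1.28% and 3.85% of all regions. The 15 regions called in all 4 adult libraries made up most of the 21 called in both enterocyte libraries and of the 19 called in both ISC libraries. With equal lists 1 region was found in each direction (backgrounds 2.88% and 2.31%), at 14568750 to 14569729 for enterocytes, with 59 and 49 tags, and at 14407068 to 14407641 for ISC, with 38 and 43 tags. With full lists each of these 2 regions also had a peak in 1 library of the other adult group.

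Every library called 4 regions, 5.48% of the window, against 5.16% of all regions. The strongest was at 14479274 to 14481455 and held the most tags of the window in all 4 adult libraries. Its tags were 57 and 65 for E12.5, 107 and 99 for E14.5, 81 and 152 for ISC, and 163 and 173 for enterocytes. The means were 1.1 ± 0.0993 RPM for E12.5, 2.97 ± 0.182 RPM for E14.5, 3.67 ± 1.65 RPM for ISC and 4.09 ± 0.466 RPM for enterocytes (SD, n = 2 each). The ISC libraries differed too much for their place among the groups to be told from this spread. Both E12.5 libraries lay below the other 6. The adult libraries had peaks from between 14479274 and 14479358 on, the ISC libraries as 2 separate peaks each, while the embryonic peaks began at 14480137 or later. The adult totals thus cover a longer stretch, and its part in the difference was not tested. Relative to the median of all regions called in every library, the log2 ratio of adult to embryonic means was 0.52, higher than at 95.6% of the 24563 such regions.

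The nearest of the 4 to region A, at 14500959 to 14501870, had lower adult values on that scale. It averaged 1.64 ± 0.744 RPM for ISC and 1.6 ± 0.269 RPM for enterocytes, against 1.87 ± 0.338 RPM for E14.5 and 1.09 ± 0.143 RPM for E12.5 (SD, n = 2 each). Relative to the same median its log2 ratio of adult to embryonic means was -0.37, and 11.7% of such regions lay lower. The sign depended on scaling, since in RPM it was 0.12, where the median of all such regions was 0.43. The regions at 14474883 to 14475735 and 14586523 to 14587310 lay near the median, with relative log2 ratios of -0.01 and 0.04. At 14586523 the tags were 42 and 41 for E12.5, 42 and 26 for E14.5, 35 and 48 for ISC, and 51 and 53 for enterocytes.

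The most tags in E12.5 replicate 1 were found at 14442039 to 14443334. It held 95 tags there and had no peak in E12.5 replicate 2, with 104 and 94 tags at E14.5, 35 and 49 in ISC, and 68 and 53 in enterocytes. The E14.5 totals there sum separate peaks, of 32 and 72 tags in replicate 1 and of 25 and 69 tags in replicate 2. In E14.5 replicate 1 the region at 14592935 to 14594883 was highest, with 142 tags over several peaks, against 69 in replicate 2. This region joined several neighbouring peaks that overlapped between libraries, so its total is not that of 1 peak. The other 17 regions chosen for description held 15 to 65 tags in any library that called them.

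Elsewhere in the genome, region A was most like a region of chromosome 5, at 113385709 to 113386796. Likeness was the Euclidean distance in log2 RPM over the 4 embryonic libraries, among the 661 other regions called in all of these and in no adult library. That region held 117 and 114 tags at E14.5 and 79 and 62 at E12.5, at a distance of 0.17, where the median distance was 2.96. The next were on chromosome 16, at 91727108 to 91728082, and on chromosome 10, at 75199308 to 75200572, at distances of 0.7 and 0.71.

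At the borders of the window, the first region inside, at 14402213 to 14402676, held 31 to 33 tags in 3 libraries, and the last, at 14599690 to 14600064, held 15 to 30 tags in 3. The nearest regions outside, at 14398930 to 14399777 and 14601562 to 14602010, held 25 to 52 tags in 3 libraries and 25 to 32 tags in 4.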

How the data were processed

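MBD pull-down libraries of 8 samples were analysed from the authors' peak lists, 1 per library, in mm9. Each pull-down used the MethylMiner kit on 1 µg of DNA, fragmented to between 150 and 250 bp, per the labels' protocols. Tools named in the submitters' processing notes are Bowtie 1.1.2, SAMtools 1.2 and bcl2fastq 1.8.4. Per the file headers, MACS 1.4.2 called each library alone, with no control, on duplicate-removed reads, at a p cutoff of 1e-05 and with a regional background of 10000 bp. Tags per peak are whole counts over that peak as the authors deposited them. The score (10 times −log10 of the p of the peak) and the fold, a ratio to local background, are also the authors' values per the file headers, used within a list.

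Regions were merged and classified with Python 3.11.15 and pandas 2.3.3, checked on simulated lists. A region was called in a group when both libraries had a peak. RPM values divide tags by the total in the file header, and tags of several peaks of 1 library in a region were summed. Tags are listed for called peaks alone, over intervals that differ between lists, so no count model was fitted. Regions were described by a rule: region A, those differing between groups, those called in every library, and the highest of each library. Of the 27, the 10 with the highest mean score standing were given in full and the rest by count and range, apart from single counts named. The members, lists and rule were chosen with earlier results of these data known. Alternatives were equal lists, the top 50% by score, merging within 500 bp, peaks covering 50% of a region, other scalings and leaving out each library. Summit intervals of 100 bp either side were added after seeing the data.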

Additional observations from a re-analysis of the deposited data

How the results depend on the processing

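Region A had peaks in the same 4 embryonic libraries and no adult library under all 5 other list, merging and presence settings. Region B did too, except with 50% coverage, where E14.5 replicate 2 dropped out, and with summit intervals, where it split in 2. The count of embryonic-only regions, 2 with full lists, was 3 with equal lists, 1 with 50% coverage or summit intervals, and 2 to 4 without single libraries (4 without E14.5 replicate 1). The 73 regions became 37 with equal lists and 44 with the top 50%, both by construction, and 66 to 73 without single libraries. E14.5 without E12.5 gave 0 with equal lists, 6 with the top 50%, 9 with 50% coverage and 20 to 29 without single libraries, against 17. E12.5 without E14.5 gave 3, 2 and 2 in these settings and 2 to 3 without single libraries, against 1. E14.5 without ISC gave 3 with equal lists and 11 to 19 without single libraries (19 without E14.5 replicate 1, 17 without ISC replicate 2), against 9. ISC without E14.5 gave 1 with equal lists, 2 with the top 50%, 1 with summit intervals and 1 to 7 without single libraries, against 0. Enterocytes without ISC gave 1 with equal lists or the top 50%, 4 with 50% coverage and 0 to 4 without single libraries, and ISC without enterocytes 1, 3, then 1 with summit intervals, and 1 to 12 without single libraries (12 without ISC replicate 1), both against 0. Adult-only regions were 0 to 1 without single libraries. The ratio of E14.5 to E12.5 at region A, 2.74, was 0.708 by tags in peaks, 1.5 by shared regions, 2.01 by the caller's fold and 2.44 to 3.11 without single libraries. At region B, 1.11 became 0.289, 0.61 and 1.71, and 0.893 (without E12.5 replicate 2) to 1.47 without single libraries. These settings show how far the values moved, and no cause was tested. No paired analysis was possible because the results come from no test and the labels used here name no donor, litter or batch. The replicate numbers that the groups share were not taken as pairs. Tags below the cutoff were not listed, and the part of depth in which weak peaks were called was not tested.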
